A study of Mus musculus with 23 samples.

Results

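Open chromatin of liver macrophages that repopulated an emptied niche was compared with that of blood monocytes in 5 of the 23 libraries of the series. ATAC-seq was used, where Tn5 transposase inserts adapters into open DNA, so that insertions pile up as peaks at accessible sites. The 3 libraries of repopulating liver macrophages came from Clec4f-cre/Rosa26iDTR mice, 24 h after diphtheria toxin, and their titles name mouse58, mouse215 and mouse106. In this line Clec4f-driven Cre is meant to give Kupffer cells the diphtheria toxin receptor, so that toxin kills them, and the rest of the liver stays in place. The 2 libraries of Ly6C-high monocytes came from the blood of C57BL/6J mice with no treatment, mouse8 and mouse3. Strain, toxin and tissue therefore all differed between the groups and cannot be told apart, and no toxin-treated blood was among the 5 libraries. The labels give no ages. The directory names in the file headers carry the word Male for all 5 libraries and a sort name of Clec-negative for the 24 h cells. Peaks that overlapped in any of the 5 libraries were merged into 95936 regions. Of these, 45234 were called in every library and are named shared regions, 2896 were called in all 24 h libraries and in no blood library, and 4294 in both blood libraries and in no 24 h library.

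Kupffer cells are the resident macrophages of the liver sinusoids, where they clear particles, dying red cells and bacteria from the blood. When they are lost, circulating Ly6C-high monocytes enter the liver and can become macrophages that resemble Kupffer cells. Notch ligand and TGF-beta family signals from endothelial and stellate cells, and sterol ligands of the nuclear receptor LXR alpha, the product of Nr1h3, take part in that conversion. Macrophage enhancers are opened by the lineage factors PU.1 and C/EBP together with factors that respond to signals, such as AP-1, NF-kB and LXR.

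The control regions upstream of 9 genes are shown because a region that differed between the groups lay on each. They were chosen after their values were seen. Each run gives the 250 bases before the first transcribed base in RefSeq (GRCm38.p6), read 5′ to 3′ on the strand of the gene. Capitals mark matches to short motifs of AP-1 (TGANTCA), NF-kB (GGAANTTCC), IRF (GAAANNGAA), RUNX (TGTGGTT), C/EBP (TTGCNNAA), RBPJ (CGTGGGAA) and the GC box (GGGGCGGGG), searched on both strands. A match is only a run of letters and says nothing on whether a factor was bound.
C3ar1, chr6:122856158-122856407, minus strand, raised at 24 h: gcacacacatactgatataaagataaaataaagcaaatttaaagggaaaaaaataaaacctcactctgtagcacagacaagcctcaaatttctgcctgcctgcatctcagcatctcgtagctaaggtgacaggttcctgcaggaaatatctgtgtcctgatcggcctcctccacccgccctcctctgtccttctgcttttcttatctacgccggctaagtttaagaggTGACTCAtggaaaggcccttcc
Cxcl2, chr5:90903649-90903898, plus strand, raised at 24 h: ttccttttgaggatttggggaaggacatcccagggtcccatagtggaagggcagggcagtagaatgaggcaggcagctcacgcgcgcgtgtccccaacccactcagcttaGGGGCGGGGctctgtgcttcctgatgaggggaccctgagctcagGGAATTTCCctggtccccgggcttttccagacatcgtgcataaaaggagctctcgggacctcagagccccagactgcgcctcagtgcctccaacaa
Plin2, chr4:86670060-86670309, minus strand, raised at 24 h: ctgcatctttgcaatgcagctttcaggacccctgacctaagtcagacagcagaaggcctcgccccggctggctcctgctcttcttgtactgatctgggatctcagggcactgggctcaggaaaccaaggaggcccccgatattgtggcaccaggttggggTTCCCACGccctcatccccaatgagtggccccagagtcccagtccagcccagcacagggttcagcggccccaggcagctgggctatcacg
Gbp2, chr3:142620413-142620662, plus strand, raised at 24 h: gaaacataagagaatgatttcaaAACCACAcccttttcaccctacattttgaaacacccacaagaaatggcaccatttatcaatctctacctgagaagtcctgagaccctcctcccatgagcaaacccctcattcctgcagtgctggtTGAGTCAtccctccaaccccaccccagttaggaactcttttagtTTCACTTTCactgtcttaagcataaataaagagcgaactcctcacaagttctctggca
Cd36, chr5:17835897-17836146, minus strand, raised at 24 h: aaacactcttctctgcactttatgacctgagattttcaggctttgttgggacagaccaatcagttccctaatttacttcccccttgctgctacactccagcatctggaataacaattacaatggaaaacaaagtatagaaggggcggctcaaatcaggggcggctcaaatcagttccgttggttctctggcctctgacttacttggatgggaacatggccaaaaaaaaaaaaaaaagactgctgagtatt
Map3k6, chr4:133240568-133240817, plus strand, lowered at 24 h: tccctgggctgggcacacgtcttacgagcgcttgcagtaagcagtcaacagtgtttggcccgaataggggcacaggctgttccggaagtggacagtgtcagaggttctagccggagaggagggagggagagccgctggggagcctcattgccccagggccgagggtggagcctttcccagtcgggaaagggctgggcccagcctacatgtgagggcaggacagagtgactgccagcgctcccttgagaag
S100a4, chr3:90603520-90603769, plus strand, lowered at 24 h: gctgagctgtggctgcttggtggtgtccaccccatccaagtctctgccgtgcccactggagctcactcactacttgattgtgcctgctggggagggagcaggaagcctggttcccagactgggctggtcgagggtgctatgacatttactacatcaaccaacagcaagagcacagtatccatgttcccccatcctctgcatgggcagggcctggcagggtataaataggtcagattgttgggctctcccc
Rarg, chr15:102246501-102246750, minus strand, lowered at 24 h: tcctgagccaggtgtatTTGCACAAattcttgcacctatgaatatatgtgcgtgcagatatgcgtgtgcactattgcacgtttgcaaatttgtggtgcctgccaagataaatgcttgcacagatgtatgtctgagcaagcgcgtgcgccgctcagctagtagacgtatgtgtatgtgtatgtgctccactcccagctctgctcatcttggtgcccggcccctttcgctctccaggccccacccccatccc
Lpcat3, chr6:124662854-124663103, plus strand, with a 24 h peak at its 5′ end and a blood peak at its 3′ end: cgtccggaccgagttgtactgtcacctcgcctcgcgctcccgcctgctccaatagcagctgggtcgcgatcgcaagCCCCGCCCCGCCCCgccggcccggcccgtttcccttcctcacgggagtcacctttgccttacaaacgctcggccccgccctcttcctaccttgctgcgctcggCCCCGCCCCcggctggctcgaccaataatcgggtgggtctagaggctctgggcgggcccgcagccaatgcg
C3ar1 held an AP-1 match 22 to 16 bases before the start, Cxcl2 an NF-kB match 96 to 88 bases before it, and Gbp2 an IRF match 58 to 50 bases before it. Plin2 held an RBPJ match, Rarg a C/EBP match and Lpcat3 3 GC boxes, of which 2 overlap. None of the motifs searched was found in the windows of Cd36, Map3k6 and S100a4.

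The libraries held 10544024 to 11013440 tags at 24 h and 12285845 to 14188417 in blood, with 36.8% to 50.7% of tags in peaks and 63682 to 71892 peaks. Depth was lower in each 24 h library than in either blood library (exact permutation test, two-sided, p = 0.2, the smallest that 3 against 2 libraries can give). Signal is the normalised tag count, the number of tags in a peak scaled to 10000000 tags in the library, and 1 tag was worth 0.705 to 0.948. Over shared regions the libraries correlated with r = 0.953 within blood, 0.930 to 0.956 within the 24 h group and 0.840 to 0.878 between groups, each over the same 45234 regions. The library of mouse106 stood apart from the other two of its group. It had the 2 highest correlations with blood, 0.878 and 0.874. It held 19.7% of the 12882 regions that were called in both Kupffer libraries of PBS mice and in no blood library, against 32.4% in mouse58 and 30.6% in mouse215. Of 15862 regions called in both blood libraries and in no Kupffer library it held 56.7%, against 58.4% in mouse58 and 58.7% in mouse215. It also had the fewest tags (10544024), the fewest peaks (63682) and the lowest percent of tags in peaks (36.8%) of the 5 libraries. It was the lowest of the 3 in 3887 of the 7299 raised regions and the highest of the 3 in 2461 of the 4285 lowered ones. Results are given with it, and the counts of each pathway list also without it.

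The cell labels were checked at the starts of marker genes. Clec4f, Timd4, Vsig4 and Marco, which mark mature Kupffer cells, had no peak at their listed starts in any of the 5 libraries. Over the whole Kupffer list, 7, 9 and 7 of 28 genes had a peak at a listed start at 24 h and 6 and 5 in blood. The start of Ly6c2, a gene of the Ly6C surface protein, held 57.0 and 62.7 in blood and 30.0, 24.5 and 36 at 24 h. The start of Ccr2, the chemokine receptor for monocyte release from marrow, held 18.7 and 24.7 in blood and no peak at 24 h. F13a1 held 13 and 18.3 at its starts in blood and 9.48 in mouse106, with no peak in mouse58 or mouse215. Of 19 classical monocyte genes with a listed start, 14 and 15 had a peak there in blood and 9, 10 and 12 at 24 h. No library had a peak at the starts of Alb (hepatocytes), Cd3e (T cells), Ly6g (neutrophils) or Itga2b (platelets). Over the whole lists, 2 to 4 of 15 T and NK cell genes had a peak at a listed start (4 in mouse106 and 2 in each other library), 5 to 7 of 16 neutrophil genes, 3 to 5 of 15 erythroid and platelet genes and 1 to 3 of 9 B cell genes. Kdr, an endothelial gene, held 17.8, 31.8 and 17.1 at its start at 24 h, 12.7 in blood mouse3 and no peak in blood mouse8. Of 10 liver endothelial genes with a listed start, 5, 3 and 2 had a peak there at 24 h and 3 and 3 in blood. For hepatocyte genes it was 1, 1 and 1 of 16 against 2 and 1, and for stellate cell genes 2, 1 and 1 of 13 against 3 and 3. Hepatocyte genes had 5 regions called at 24 h only and 1 in blood only, stellate genes 3 and 4, and endothelial genes 2 and 7. T and NK cell genes had 3 and 11, neutrophil 1 and 8, B cell 1 and 5, and erythroid and platelet 1 and 2. Over all regions it was 2896 and 4294. Hnf4a had 3 of the 5 hepatocyte regions at 24 h only, beside 2 lowered of its 5 shared regions. In blood only, Erg had 4 regions, and Thy1 and Cd2 3 each. The part of such cells in the results below was not tested.

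Signal rose at 7299 of the 45234 shared regions (16.1%), fell at 4285 (9.47%) and did not pass at 33650. These calls used limma with a Benjamini-Hochberg adjusted p under 0.05 on log2(normalised tag count + 1), after each library had been centred on its median. Centring removed a shift of -0.26 (24 h minus blood), so every change here is relative to the median region of its library. On the log2 scale the median rise was 0.86 and the median fall -0.97. Rises passed 2-fold at 2653 regions and 4-fold at 229, and falls at 1958 and 130. Without centring, rises numbered 2056 and falls 5777, so the share of calls that were rises went from 63.0% to 26.2%, and with quantile normalisation it was 51.2% (5392 rises and 5141 falls). Without mouse106 there were 8552 rises and 5746 falls, and without blood mouse8 or mouse3 there were 3743 and 1597, or 3631 and 1415. In bulk samples, a weaker peak in each cell and a peak in fewer of the cells cannot be told apart. Separate mouse numbers are the only sign that the libraries are biological replicates, so p-values measure the spread between these libraries.

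**Figure D1:**
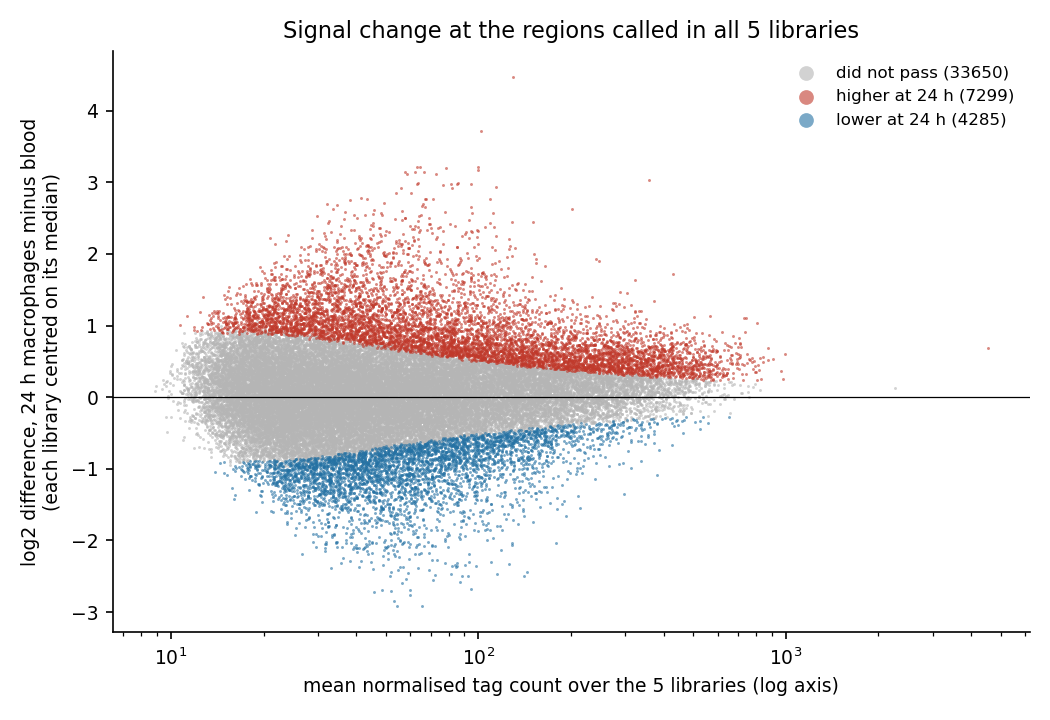
Each point is 1 of the 45234 regions called in all 5 libraries, with its mean normalised tag count on the x axis (log) and its log2 difference, 24 h minus blood, on the y axis. Red points (7299) rose, blue points (4285) fell and grey points (33650) did not pass; smaller changes passed where the signal was higher.

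The 12 largest rises lay inside or near 12 genes. A region within Rgs1, a brake on chemokine receptor signalling, at chr1:144248962-144249235 held 10.6 and 16.9 in blood and 196.6, 156.2 and 129.0 at 24 h. All 3 values at 24 h lay above both in blood, and the log2 difference was 3.72 (SE 0.24, limma adjusted p = 7.8e-12). A region beside Plekha1, which encodes an adaptor that binds phosphoinositides, rose from 15.5 and 21.8 to 154.5, 193.4 and 111.9, a log2 difference of 3.21 (SE 0.24, adjusted p = 1.7e-10). A region inside Ncapg2, a subunit of condensin, rose from 10.6 and 12 to 115.1, 86.3 and 68.3 (3.11, SE 0.29, adjusted p = 7.4e-09). The other genes among the 12 largest rises were Abhd12, Dmac1, Mtmr7, Lbh, Vps13d, Rnf121, Ldlrad4, Gmeb2 and Rassf8, with log2 differences of 2.99 to 4.47. The mouse106 library was the lowest of the 3 libraries at 24 h at each of these 12 regions. The rule that chose these 12, and the 12 falls, required groups that do not overlap, as held at 23075 of the 45234 shared regions.

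Among the 12 largest falls, those of Map3k6 and Tuba1a lay at starts of transcription. The region over the start of Map3k6, a stress-activated kinase gene whose upstream run is shown above, held 171.7 and 226.2 in blood and 21.5, 20.9 and 34.1 at 24 h. Every 24 h value was below both blood values, with a log2 difference of -2.68 (SE 0.26, adjusted p = 1.9e-08). The start of Tuba1a, which encodes an alpha-tubulin, fell from 162.8 and 194.5 to 20.6, 15.4 and 43.6 (-2.58, SE 0.31, adjusted p = 5.6e-07). A region in Cdh1, the gene of E-cadherin, fell from 94.4 and 141.7 to 11.2, 16.3 and 19.0 (-2.60, SE 0.31, adjusted p = 4.0e-07). The others lay in or near Arhgef17, Dzank1, Atp2b4, Akna, Ttc7, Tom1, Uqcrfs1, Smim20 and Nin, with log2 differences of -2.92 to -2.54.

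**Figure D2:**
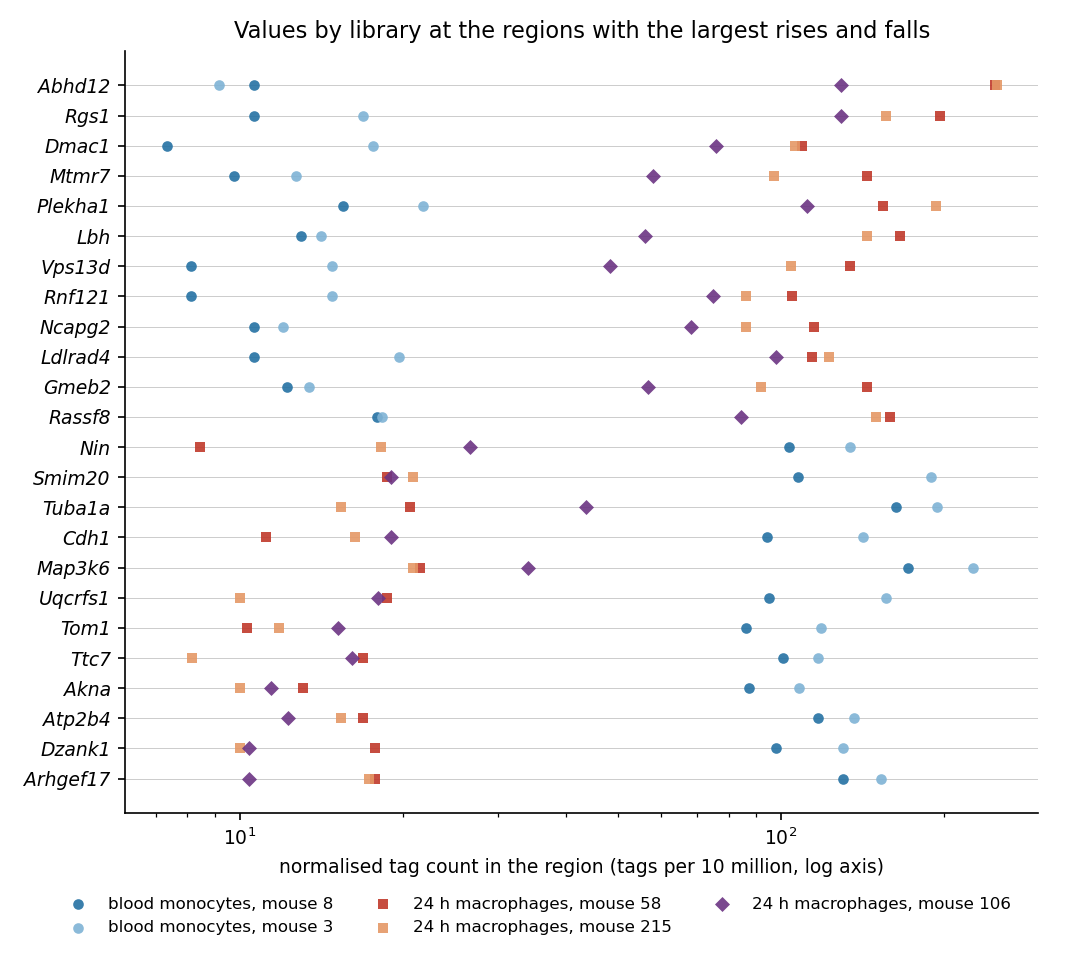
Normalised tag count by library (x axis, log, tags per 10000000) at the 12 regions with the largest rises (top) and the 12 with the largest falls (bottom), each named by its gene. Circles are blood monocytes, squares and diamonds 24 h macrophages; the diamonds of mouse106 lie nearest to blood at all 12 rises.

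The genes named next come from the 10 with most raised and no lowered regions and the 10 of the reverse kind. The lack of opposite changes was thus set by the rule that picked them. Frmd4b, a scaffold gene of cell junctions, had 8 raised and no lowered regions of 19 (5 and 0 without centring), and Dtx4, an E3 ligase gene of the Notch pathway, 7 raised of 10 (1 without centring). Klf6, a zinc finger factor induced by injury signals, had 6 raised of 10 (1 without centring), and the largest of these, at chr13:5837478-5837710, held 10.6 and 16.9 in blood and 84.3, 66.3 and 62.6 at 24 h (log2 difference 2.57, SE 0.29, adjusted p = 1.6e-07). The reverse held for Prkce, a protein kinase C gene, with 10 lowered and no raised regions of 28, Gse1 with 8 of 27 and Ralgps1 with 7 of 15. Scarb1, the receptor for high-density lipoprotein, had 6 lowered of 12, and its strongest fall, at chr5:125273691-125274099, went from 157.9 and 174.8 to 34.6, 30.9 and 37.9 (-1.99, SE 0.23, adjusted p = 3.0e-07).

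Among 34 genes of Kupffer cell identity, 10 had raised and no lowered regions, 2 lowered and no raised ones, and 1 had both. Of 71 shared regions near them, 18 rose (25.4%, against 16.1% of all shared regions), 3 fell (4.23%, against 9.47%) and 50 did not pass. The median log2 difference was 0.20 against 0.08 over all shared regions. The list also had 23 regions called at 24 h only and 4 called in blood only, where all regions gave 2896 and 4294. Without centring 12 rose and 4 fell, without mouse106 it was 22 and 5, and without blood mouse8 or mouse3 it was 13 and 1, or 14 and 3. Itga9, an integrin chain of Kupffer cells, carried 12 of the 23 regions called at 24 h only. In the strongest of those 12, at chr9:118666175-118666400, the signal was 146.0, 138.0 and 69.2 at 24 h and no peak was called in blood. Its strongest shared region, at chr9:118669765-118670006, held 80.6 and 129.7 in blood and 386.6, 336.0 and 273.1 at 24 h (1.93, SE 0.14, adjusted p = 2.2e-10). Cd5l, which encodes a secreted survival factor of macrophages, rose from 8.14 and 12.7 to 64.6, 86.3 and 44.6 at 1 distal region (2.77, SE 0.31, adjusted p = 2.0e-07). Adrb1, the beta-1 adrenoceptor gene, had 3 regions called at 24 h only. Spic, a factor of iron-recycling macrophages, had 1 such region, with 112.3, 144.4 and 70.2. Smad6, an inhibitory Smad, moved against the list at 1 of its 9 regions, from 42.3 and 40.9 to 9.36, 13.6 and 12.3 (-1.50, SE 0.34, adjusted p = 0.0014). Without blood mouse8 the value at Smad6 was -1.29 and the limma adjusted p 0.06. The 1 shared region near Clec4f, the lectin gene that drives the Cre, held 12.2 and 28.2 in blood and 15, 20.9 and 14.2 at 24 h, and the groups overlapped (0.09, SE 0.35, adjusted p = 0.88).

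LXR targets, genes of cholesterol export and fatty acid synthesis, had a median of 0.39, the highest of the 20 pathway lists except without mouse215 (0.36, complement 0.37) and with all 9 libraries in the fit (0.29, Kupffer identity 0.30). Their 89 shared regions included 32 rises (35.96%, against 16.1% of all shared regions) and 5 falls (5.62%, against 9.47%). The other 52 did not pass. Another 16 regions were called at 24 h only and 4 in blood only (2896 and 4294 over all regions). Without centring 16 rose and 6 fell, without mouse106 it was 35 and 6, and without blood mouse8 or mouse3 it was 20 and 1, or 21 and 1. Abca1, the pump that loads cholesterol onto apolipoprotein A-I, had 6 raised regions of 10, no lowered one and 3 called at 24 h only. The largest, at chr4:53149701-53150030, held 23.6 and 21.1 in blood and 84.3, 75.4 and 80.6 at 24 h, a log2 difference of 2.05 (SE 0.26, adjusted p = 1.3e-06). Plin2, which coats lipid droplets, had 5 raised of 8. A region at its start, over the upstream run shown above, held 36.6 and 48.6 in blood and 89.9, 93.5 and 90.1 at 24 h (1.35, SE 0.22, adjusted p = 4.0e-05). Scd2, a stearoyl-CoA desaturase gene, rose from 33.4 and 53.6 to 125.4, 186.1 and 73.0 (1.73, SE 0.25, adjusted p = 8.1e-06), and Mylip, an E3 ubiquitin ligase gene, had 3 regions called at 24 h only. Arl4c, a small GTPase gene, went the other way, from 180.7 and 250.9 to 44.0, 47.2 and 62.6 (-1.79, SE 0.21, adjusted p = 3.6e-07). Mertk, the receptor for dying cells, had 2 raised and 2 lowered regions of 8.

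Nr1h3 itself, the gene of LXR alpha, had 2 shared regions. The region inside the gene at chr2:91196743-91197130 held 39.1 and 51.5 in blood and 98.3, 75.4 and 75.9 at 24 h (1.12, SE 0.23, adjusted p = 0.00048). The region nearest to a start held 39.9 and 57.8 against 52.4, 51.8 and 46.5 and did not pass (0.32, SE 0.25, adjusted p = 0.38). The 3 values of the first region at 24 h lay above both in blood, and before centring those of the second lay between the 2 blood values.

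AP-1 and other stress-response factors gained signal at 37 of 110 shared regions (33.6%, against 16.1% of all) and lost it at 4 (3.64%, against 9.47%). The median was 0.27, and 69 did not pass. Without centring 12 rose and 5 fell, without mouse106 it was 42 and 7, and without blood mouse8 or mouse3 it was 20 and 0, or 21 and 1. Of regions with peaks in 1 group, 5 were called at 24 h only and 10 in blood only (2896 and 4294 over all regions). All 3 shared regions of Egr3, an immediate-early zinc finger gene, rose, and the strongest change was from 26 and 40.9 to 171.3, 143.5 and 113.8 (2.33, SE 0.21, adjusted p = 7.4e-09). Fosb, an AP-1 subunit, had 4 raised of 5, among them a region that went from 96.9 and 117.7 to 223.7, 227.9 and 163.1 (1.17, SE 0.16, adjusted p = 2.8e-06). Nr4a2, an orphan nuclear receptor of the early response, had 3 raised of 6, the largest from 78.1 and 157.9 to 256.5, 274.2 and 169.8 (1.29, SE 0.18, adjusted p = 3.7e-06). Jun had 3 raised of 4, Atf3 3 of 10 and Fos 2 of 14, and without centring none of these passed. A Jun region at chr4:95050632-95050846 was called in blood only, with 107.4 and 134.6 and no 24 h peak within 1 kb. Fos had 1 region called at 24 h only and 2 in blood only, and Atf3 had 1 in blood only. The Atf3 start held 214.1 and 308.0 in blood and 320.2, 316.0 and 263.7 at 24 h (0.47, SE 0.12, adjusted p = 0.0041). The Fos start, at 172.6 and 196.6 in blood, held 215.3, 235.2 and 307.3 at 24 h (0.69, SE 0.16, adjusted p = 0.0015), and here mouse106 was the highest. The Atf3 start lost its call without blood mouse8 (0.40, adjusted p = 0.099) and the Fos start without mouse3 (0.60, adjusted p = 0.078). Junb had a region downstream called at 24 h only, with 184.4, 210.7 and 264.6 and no blood peak within 1 kb. Batf3, a partner of Jun that is needed for a class of dendritic cells, had 2 lowered regions of 5 and 4 called in blood only.

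The lineage factors of macrophages changed less evenly. Of 198 shared regions near 26 such genes 40 rose (20.2%), 18 fell (9.09%) and 140 did not pass. Over all shared regions 16.1% rose and 9.47% fell. Without centring 10 of the 198 rose and 26 fell, so the direction of the list depended on the scaling. Without mouse106 it was 45 and 27, and without blood mouse8 or mouse3 it was 14 and 2, or 24 and 7. Spi1, the gene of PU.1, had none of its 6 shared regions past the threshold, with log2 differences from -0.10 to 0.18. At one of them, chr2:91096597-91096863, the values were 122.9 and 129.7 in blood and 112.3, 119.9 and 128.0 at 24 h. Cebpa had 1 lowered region of 8 and its start did not pass, with 281.6 and 374.2 against 229.4, 260.6 and 167.9 (-0.33, SE 0.14, adjusted p = 0.074). The start was called lower with quantile normalisation (-0.54, adjusted p = 0.0034), with all 9 libraries of the repopulation experiment (-0.42, adjusted p = 0.034) and without mouse215 (-0.45, adjusted p = 0.029). The lowered Cebpa region (-0.71, adjusted p = 0.036) lost its call without blood mouse8, mouse3 or mouse215 (adjusted p = 0.35, 0.11 and 0.16), without the trend and with the findPeaks score. Cebpb had 2 raised of 8 and 2 called in blood only, and its start held 142.4 and 269.9 against 205.9, 175.2 and 201.1 and was called higher only with the findPeaks score (0.31, adjusted p = 0.021). Neither Cebpb rise passed without centring (adjusted p = 0.27 and 0.21), without blood mouse8 (0.096 and 0.053) or without mouse3 (0.06 and 0.27). Irf8, which drives monocyte and dendritic fates, showed a rise from 15.5 and 21.1 to 165.7, 125.3 and 83.5 at a region 20147 bases from the gene (2.92, SE 0.26, adjusted p = 3.5e-09), beside 2 lowered regions of 11. Zeb2, a repressor needed for Kupffer cell identity, had 3 raised regions of 5 and 4 called at 24 h only. Runx1 had 4 raised and 5 lowered regions of 20 and 3 called in blood only.

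Of 24 classical monocyte genes, 10 had lowered and no raised regions, 3 raised and no lowered ones, and 2 had both. Near them 6 of 84 shared regions rose (7.14%, against 16.1% of all shared regions), 21 fell (25.0%, against 9.47%) and 57 did not pass, with a median of -0.09. Another 3 regions were called at 24 h only against 19 in blood only (2896 against 4294 over all regions). The counts of rises and falls changed with the libraries and the scaling. Without mouse106 it was 8 and 25, without blood mouse8 or mouse3 it was 4 and 9, or 0 and 9, and without centring 0 and 26. S100a4, a calcium-binding protein gene of monocytes, fell at its start, over the run shown above, from 99.3 and 142.4 to 31.8, 30.9 and 26.6 (-1.71, SE 0.25, adjusted p = 7.1e-06). Hp, the haptoglobin gene, fell from 87.9 and 117.0 to 21.5, 17.3 and 27.5 (-1.92, SE 0.29, adjusted p = 1.2e-05), and a region near Ifitm6 from 51.3 and 82.5 to 15.9, 8.17 and 15.2 (-2.03, SE 0.34, adjusted p = 5.1e-05). Gpr141, a myeloid receptor gene, had 2 lowered regions of 5 and 5 called in blood only, and F13a1, the factor XIII A chain gene, had 3 called in blood only. Ccr2 had 2 regions called in blood only, its start among them, while none of its 4 shared regions passed. Its region at chr9:124112618-124112861 came closest, with 64.3 and 108.5 against 49.6, 46.3 and 42.7 (-0.59, SE 0.24, adjusted p = 0.069), and it was called lower without centring (-0.84, adjusted p = 0.036) and with all 9 libraries in the fit (-0.68, adjusted p = 0.031). Ly6c2 had a raised region, from 124.5 and 135.3 to 147.0, 185.2 and 195.4 (0.68, SE 0.17, adjusted p = 0.0036), and its start did not pass (-0.72, SE 0.29, adjusted p = 0.063). The start was called lower without centring (-0.98, adjusted p = 0.031), with the findPeaks score (-0.85, adjusted p = 0.0076) and without mouse106 (-0.91, adjusted p = 0.013). The rise at Ly6c2 did not pass without centring (0.42, adjusted p = 0.22) or without mouse3 (0.55, adjusted p = 0.12). Plac8, a small cysteine-rich protein gene, was the only gene of the list with regions called at 24 h only, 3 of them.

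Notch pathway genes, whose products pass a signal from ligands such as DLL4 to the factor RBPJ, had 23 raised and 11 lowered of 133 shared regions. These shares, 17.3% and 8.27%, were near those of all shared regions, 16.1% and 9.47%. Without centring 4 rose and 20 fell, with quantile normalisation 13 and 15. Regions called in blood only outnumbered those at 24 h only, 17 against 8, and did so over all regions, 4294 against 2896. Hes1, a direct target, rose next to its gene at chr16:30065077-30065298, from 53.7 and 64.8 to 222.8, 158.9 and 118.6 (1.69, SE 0.20, adjusted p = 3.7e-07). The next region, at chr16:30063981-30064401, rose from 58.6 and 53.6 to 181.6, 171.6 and 101.5 (1.63, SE 0.21, adjusted p = 1.8e-06), while a distal one fell (-0.65, SE 0.24, adjusted p = 0.048), a call that was lost without blood mouse8 (-0.71, adjusted p = 0.18) and without mouse3 (-0.59, adjusted p = 0.28). Hey2, another target of the pathway, rose at its 1 shared region from 196.2 and 291.8 to 401.6, 361.4 and 252.3 (0.73, SE 0.13, adjusted p = 0.00016), or by 0.47 without centring, which did not pass (adjusted p = 0.13). The receptor gene Notch1 had 3 lowered regions of 6 and 3 called in blood only. One of them fell from 53.7 and 62.7 to 12.2, 22.7 and 18 (-1.45, SE 0.33, adjusted p = 0.0014), or by -1.37 without blood mouse8 (adjusted p = 0.052). Rbpj had 2 raised regions of 8, both at or near a start, where the one over the start held 92.0 and 162.8 against 191.9, 134.4 and 129.0 (0.54, SE 0.18, adjusted p = 0.025). Before centring, the values of that region interleave between the groups, and neither Rbpj call held without centring or with quantile normalisation. The Rbpj start also lost its call without blood mouse8 (0.32, adjusted p = 0.38) and without mouse58 (0.40, adjusted p = 0.17).

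Of the TGF-beta and BMP genes, 9 had raised and no lowered regions and 11 lowered and no raised ones. The list had 17 raised, 22 lowered and 103 other regions of 142, a median of -0.08, and 8 raised and 28 lowered without centring. Its centred shares, 11.97% raised and 15.5% lowered, compare with 16.1% and 9.47% of all shared regions. Id1, an inhibitor of helix-loop-helix factors and a BMP target, rose just beyond its gene at chr2:152735089-152735316, from 45.6 and 58.5 to 150.7, 155.3 and 116.7 (1.67, SE 0.19, adjusted p = 2.5e-07). Id3, its relative, rose at chr4:136140329-136140566 from 53.7 and 88.1 to 181.6, 198.8 and 145.1 (1.58, SE 0.18, adjusted p = 2.0e-07). The start of Id3, with 317.4 and 402.4 in blood and 300.5, 274.2 and 275.0 at 24 h, did not pass (-0.08, SE 0.11, adjusted p = 0.65) but was called lower with quantile normalisation (-0.33, adjusted p = 0.03). Tgif1, a corepressor of Smads, rose at both of its shared regions. Smad3, which carries the TGF-beta signal, fell at its start from 279.2 and 319.3 to 124.5, 129.8 and 140.4 (-0.92, SE 0.15, adjusted p = 3.5e-05) and at 3 other regions of 14, and rose at 1. Ski, a repressor of Smad targets, fell at 5 of 10 regions, and Acvrl1, the receptor ALK1, fell from 280.8 and 415.1 to 88.0, 87.2 and 94.8 (-1.66, SE 0.16, adjusted p = 1.5e-08). A Smad4 region beginning at chr18:73703805, on a chromosome without listed starts, held 149.8 and 202.3 in blood and 204.1, 203.4 and 190.6 at 24 h. It rose by 0.45 (SE 0.14, limma adjusted p = 0.018) relative to the library medians. Its values before centring overlap, and without centring it did not pass (0.19, adjusted p = 0.62), nor without blood mouse8 (0.42, adjusted p = 0.14) or mouse3 (0.48, adjusted p = 0.098).

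**Figure D3:**
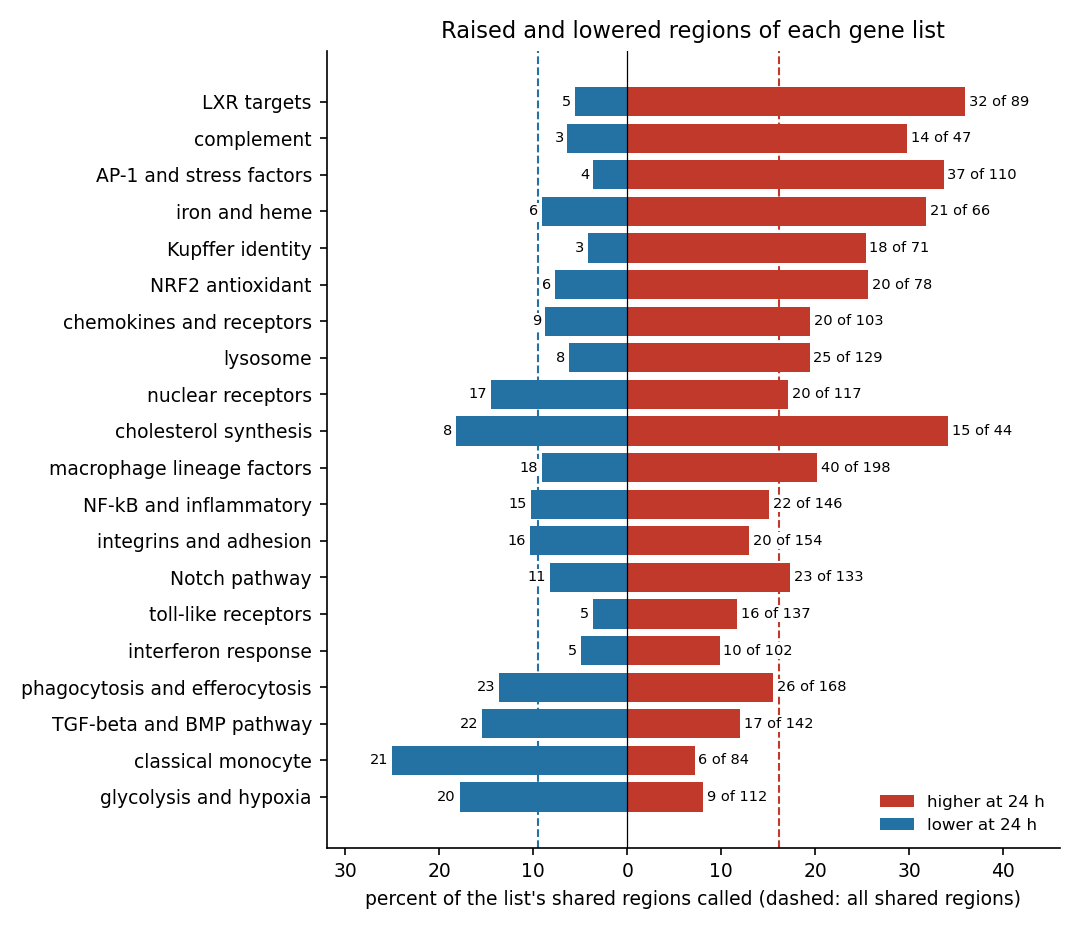
For each of 20 pathway lists, bars give the percent of its shared regions that rose (red, right) or fell (blue, left), with counts, and dashed lines give 16.1% and 9.47% over all shared regions. Lists are ordered by median log2 difference from LXR targets (0.39, top) to glycolysis and hypoxia (-0.10, bottom).

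For most lists, counts shrank with the total when 1 blood library was left out. Without blood mouse8 or mouse3, rises and falls were 13 and 5, or 7 and 1, for NF-kB and inflammatory genes, 12 and 4, or 10 and 3, for chemokines and receptors, and 10 and 1, or 14 and 1, for iron and heme. They were 5 and 8, or 6 and 7, for glycolysis and hypoxia, 14 and 3, or 13 and 3, for the lysosome, and 14 and 4, or 15 and 6, for phagocytosis. For the Notch pathway they were 11 and 2, or 7 and 2, for toll-like receptors 5 and 0, or 6 and 0, for the interferon response 3 and 2, or 4 and 2, and for complement 7 and 1, or 4 and 1. For the TGF-beta and BMP pathway they were 12 and 10, or 16 and 8, for nuclear receptors 10 and 8, or 14 and 7, for cholesterol synthesis 8 and 7, or 8 and 5, for integrins 11 and 7, or 14 and 7, and for NRF2 targets 7 and 4, or 13 and 4. Without mouse106 rises and falls were 21 and 21 for NF-kB and inflammatory genes, 23 and 12 for chemokines and receptors, 24 and 6 for iron and heme, 14 and 25 for glycolysis and hypoxia, 27 and 12 for the lysosome and 30 and 23 for phagocytosis. In the same way they were 24 and 20 for the Notch pathway, 20 and 11 for toll-like receptors, 13 and 8 for the interferon response, 14 and 5 for complement, 24 and 32 for the TGF-beta and BMP pathway, 26 and 20 for nuclear receptors, 16 and 8 for cholesterol synthesis, 24 and 21 for integrins and 20 and 7 for NRF2 targets.

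Inflammatory genes moved in both directions. NF-kB and inflammatory genes had 22 raised and 15 lowered regions of 146 (15.1% and 10.3%), near the shares of all shared regions. Counts were 6 and 19 without centring or 16 and 19 with quantile normalisation. These genes had 20 regions called at 24 h only and 11 in blood only (2896 and 4294 over all regions). Tnfaip3, the deubiquitinase A20, rose distally from 94.4 and 178.3 to 269.6, 258.8 and 241.8 (1.23, SE 0.15, adjusted p = 7.2e-07), and Csf1, the macrophage growth factor, from 22.0 and 44.4 to 119.8, 100.8 and 79.7 (1.88, SE 0.24, adjusted p = 1.5e-06). Socs3, a brake on cytokine signals, fell at 4 of 8 regions, and Nlrp3, the inflammasome sensor, rose at 1 and fell at 2. Il12b, a subunit of interleukin 12, had 3 regions called at 24 h only. Among chemokine ligands and receptors, all 4 shared regions of Ccl3 (1 without centring), 2 of 5 of Ccl4, 4 of 8 of Ccr1 (1 without centring) and 2 of 3 of Cxcl2 rose, while 3 of 7 of Cx3cr1 and 2 of 9 of Cxcr4 fell. The list counted 20 raised and 9 lowered regions of 103, but 12 and 14 without centring. The centred shares, 19.4% and 8.74%, compare with 16.1% and 9.47% of all shared regions. At the Cxcl2 start, over the run with the NF-kB letters, signal was 57.0 and 95.9 in blood and 249.0, 198.8 and 224.8 at 24 h (1.84, SE 0.17, adjusted p = 7.4e-09). Cx3cr1, the fractalkine receptor, fell from 87.9 and 119.8 to 30.9, 15.4 and 30.3 at 1 region (-1.77, SE 0.30, adjusted p = 5.4e-05).

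Complement genes rose at 14 of 47 regions (29.8%, against 16.1% of all shared regions) and fell at 3 (6.38%, against 9.47%). The median was 0.28, and without centring 4 rose and 3 fell. C3ar1, the receptor for the C3a fragment, rose at the start with the AP-1 letters from 18.7 and 20.4 to 95.5, 102.6 and 73.0 (2.40, SE 0.26, adjusted p = 9.8e-08). Itgam, the complement receptor chain CD11b, had 2 lowered regions of 7, one from 141.6 and 150.8 to 26.2, 19.1 and 29.4 (-2.27, SE 0.27, adjusted p = 3.4e-07). Toll-like receptor genes had 16 raised and 5 lowered of 137, 11.7% and 3.65%, both below the shares of all shared regions, and 5 and 12 without centring. Tlr4, the receptor for lipopolysaccharide, rose at 4 of 8, the strongest from 155.5 and 215.7 to 352.9, 324.1 and 263.7 (1.02, SE 0.13, adjusted p = 9.5e-07). Interferon response genes had 10 raised and 5 lowered of 102, both shares below those of all regions, and 3 and 8 without centring. Gbp2, a guanylate-binding protein gene, rose at its start from 17.1 and 30.3 to 53.4, 56.3 and 37.0 (1.30, SE 0.29, adjusted p = 0.0015), or by 1.09 without blood mouse8 (adjusted p = 0.056). Ifit2, an RNA-binding effector, rose from 10.6 and 17.6 to 71.1, 55.4 and 33.2 (2.07, SE 0.32, adjusted p = 1.9e-05).

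Genes of iron and heme handling rose at 21 of 66 regions (31.8%, against 16.1% of all shared regions) and fell at 6 (9.09%, against 9.47%). The median was 0.21, and without centring 9 rose and 6 fell. Bach1, a heme-sensing repressor, had 7 raised and 1 lowered regions of 13, and a distal one rose from 17.1 and 26.8 to 103.9, 64.5 and 46.5 (1.87, SE 0.29, adjusted p = 2.1e-05). Fth1, the ferritin heavy chain, had 4 raised of 7, among them one that went from 49.7 and 59.9 to 96.4, 105.3 and 142.3 (1.29, SE 0.22, adjusted p = 5.8e-05), with mouse106 the highest. Slc40a1, the iron exporter ferroportin, had 1 raised region of 2 and 2 called at 24 h only. The NRF2 antioxidant list had 20 raised and 6 lowered of 78 (25.6% and 7.69%), and 5 and 7 without centring. Txnrd1, a thioredoxin reductase gene, had 4 raised of 9, the strongest from 94.4 and 95.9 to 151.7, 199.8 and 182.1 (1.14, SE 0.18, adjusted p = 1.8e-05). Mgst1, a glutathione transferase gene, had 3 lowered of 4, one from 157.1 and 217.1 to 43.1, 50.8 and 44.6 (-1.72, SE 0.21, adjusted p = 4.7e-07).

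Glycolysis and hypoxia genes had a median of -0.10, close to that of classical monocyte genes, and which of these lists was the lowest changed with the setting. Of 112 regions 9 rose and 20 fell (8.04% and 17.9%, against 16.1% and 9.47% of all shared regions), and 3 and 22 without centring. Slc2a1, the glucose transporter GLUT1, fell at 4 of 12 regions, one from 190.5 and 279.8 to 34.6, 29.1 and 38.9 (-2.47, SE 0.22, adjusted p = 5.5e-09). Pfkfb4, a regulator of glycolytic flux, fell at 4 of 6, with 135.9 and 201.6 against 31.8, 23.6 and 57.9 at one of them (-1.94, SE 0.28, adjusted p = 7.1e-06). Pgk1, a glycolytic enzyme, and Ldha, lactate dehydrogenase A, went the other way. Pgk1 rose at its start from 220.6 and 256.5 to 440.0, 394.1 and 445.8 (1.09, SE 0.12, adjusted p = 8.4e-08), and Ldha rose at all 3 of its regions (1 without centring).

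Cholesterol synthesis genes had 15 raised and 8 lowered of 44 regions (34.1% and 18.2%, against 16.1% and 9.47% of all shared regions). There were 0 and 8 without centring and 7 and 9 with quantile normalisation, so the rises depended on the scaling. Msmo1, a sterol oxidase, held 498.1 and 643.5 at its start in blood and 838.8, 800.8 and 774.8 at 24 h (0.76, SE 0.08, adjusted p = 8.0e-08). The start of Hmgcs1, the synthase of HMG-CoA, held 367.1 and 501.1 against 618.8, 567.5 and 528.3 (0.67, SE 0.09, adjusted p = 4.2e-06). Neither passed without centring, with 0.51 at Msmo1 (adjusted p = 0.1) and 0.41 at Hmgcs1 (adjusted p = 0.2).

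Lysosome genes had 25 raised and 8 lowered regions of 129, and 8 and 8 without centring. With centring 19.4% rose and 6.202% fell, against 16.1% and 9.47% of all shared regions. The protease gene Ctsb had 4 raised of 5, the strongest from 26 and 29.6 to 146.0, 110.8 and 72.1 (2.14, SE 0.25, adjusted p = 3.2e-07), and Ctsd 4 of 5. Gpnmb, a glycoprotein of lipid-laden macrophages, had 3 regions called at 24 h only. Of their regulators, Tfe3 had 1 raised region of 2, and Tfeb, a master factor of lysosome genes, had 3 lowered and no raised of 12, one from 96.0 and 96.6 to 33.7, 24.5 and 36 (-1.35, SE 0.27, adjusted p = 0.00040), or by -1.16 without blood mouse8 (adjusted p = 0.051). Its relative Mitf fell at a start from 372.0 and 536.4 to 287.4, 210.7 and 243.7 (-0.61, SE 0.13, adjusted p = 0.00060), or by -0.53 without mouse3 (adjusted p = 0.056).

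Phagocytosis genes had 26 raised and 23 lowered regions of 168, 10 and 28 without centring and 22 and 25 with quantile normalisation. The centred shares were 15.5% and 13.7%, against 16.1% and 9.47% of all shared regions. Cd36, a scavenger receptor for oxidised lipids, had 4 raised of 7. At the start shown above it held 10.6 and 14.1 in blood and 108.6, 81.7 and 55 at 24 h (2.85, SE 0.29, adjusted p = 5.2e-08). Another region, at chr5:17879914-17880311, rose from 24.4 and 38.1 to 141.4, 140.7 and 110.0 (2.31, SE 0.22, adjusted p = 1.0e-08). Lrp1, an endocytic receptor, had 4 raised of 13 and Dock1, an exchange factor for engulfment, 3 lowered of 4. Integrin and adhesion genes had 20 raised and 16 lowered of 154, 9 and 21 without centring and 18 and 19 with quantile normalisation. With centring 12.99% rose and 10.4% fell, against 16.1% and 9.47% of all shared regions. The list also had 22 regions called at 24 h only, 12 of them at Itga9, and 9 in blood only (2896 and 4294 over all regions). Itgb5, an integrin for apoptotic cells, held opposite changes inside 1 gene, from 32.6 and 22.6 to 128.3, 88.1 and 60.7 at chr16:33922232-33922667 (1.92, SE 0.28, adjusted p = 9.4e-06) and from 86.3 and 107.8 to 27.1, 33.6 and 23.7 at chr16:33915040-33915325 (-1.50, SE 0.26, adjusted p = 9.5e-05).

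Nuclear receptor genes had 20 raised and 17 lowered of 117, 7 and 21 without centring and 14 and 22 with quantile normalisation. The centred shares were 17.1% and 14.5%, against 16.1% and 9.47% of all shared regions. Rarg, a retinoic acid receptor, fell at all 3 shared regions, at its start from 137.6 and 195.9 to 41.2, 34.5 and 53.1 (-1.68, SE 0.23, adjusted p = 3.7e-06). A region inside Rara, the alpha receptor, fell from 109.1 and 164.2 to 29.0, 29.1 and 20.9 (-2.06, SE 0.25, adjusted p = 7.5e-07). Nr1d2, a receptor of the circadian clock, rose at its start from 264.5 and 386.9 to 506.4, 520.3 and 400.2 (0.82, SE 0.11, adjusted p = 1.9e-06), or by 0.56 without centring (adjusted p = 0.061).

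Dendritic cell genes were read as well, since either sort could hold such cells. Their 87 shared regions had 12 rises and 13 falls (13.8% and 14.9%, against 16.1% and 9.47% of all shared regions). Another 2 regions were called at 24 h only and 14 in blood only (2896 and 4294 over all regions). Without centring there were 6 rises and 22 falls. Without mouse106 it was 14 and 19, and without blood mouse8 or mouse3 it was 8 and 5, or 4 and 4. All 3 regions of H2-Aa and all 3 of H2-Ab1, which encode class II histocompatibility chains, rose (3 and 1 without centring). One at H2-Aa went from 31.7 and 39.5 to 145.1, 143.5 and 74.9 (1.94, SE 0.24, adjusted p = 7.2e-07). Flt3, the growth factor receptor of dendritic progenitors, fell at 3 of 7, at its start from 215.7 and 300.9 to 74.9, 90.8 and 87.3 (-1.33, SE 0.17, adjusted p = 1.4e-06). The part of such cells in these values was not tested.

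Peaks called in 1 group alone made up 3.02% (24 h only) and 4.48% (blood only) of all merged regions. They were weak, with a median signal of 19.8 and 15.8, against 46.7 at shared regions. They also included shifted windows: 933 of the 2896 (32.2%) and 1226 of the 4294 (28.6%) lay within 1 kb of a peak from the opposite group. One such pair lay at the Lpcat3 run above. The region chr6:124662730-124662941 held 397.9, 399.5 and 377.5 at 24 h, and chr6:124662948-124663160 held 173.4 and 259.4 in blood, so both groups had open chromatin at 1 start and the called window differed. The same held at Ppp2r1a, a phosphatase subunit gene (811.6, 727.3 and 599.4 against 366.3 and 496.9), and at Hspa8, a chaperone gene.

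With no peak of the other group within 1 kb, 1963 regions remained at 24 h and 3068 in blood. The strongest of the first kind lay at Junb, at Zfand5, a ubiquitin-binding protein gene (228.4, 217.0 and 169.8), at Ripk2, a kinase of the NOD pathway (182.5, 165.3 and 142.3), and at Rasgef1b (164.8, 180.7 and 137.5). Those of the second kind lay near Zswim4 (207.6 and 281.9), in Klf13, a zinc finger factor (223.8 and 243.2), and in Tppp3 (166.0 and 238.2). The genes with most regions at 24 h only after Itga9 were Usp6nl with 8, which encodes a GTPase-activating protein for Rab5, and Ttll5 with 5. Hpgds, a prostaglandin D synthase gene, had 4, beside a shared region that rose from 27.7 and 26.8 to 140.4, 144.4 and 135.6 (2.58 on the log2 scale, limma adjusted p = 2.1e-09). Rad51b, a gene of homologous recombination, had 8 regions in blood only, and Ankrd11, Foxn3, Gas7 and Wwox 7 each. Foxp1, a forkhead factor whose fall accompanies monocyte differentiation, had 6, with 11 lowered and 1 raised of its 30 shared regions.

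Libraries that took no part in choosing the regions were then read. Of the regions called at 24 h only, 90.5% ± 3.15 (SD, n = 2) had a peak in 48 h repopulating macrophages, 67.6% ± 2.08 (n = 2) in Kupffer cells of PBS mice and 70.0% ± 5.05 (n = 2) in cultured marrow macrophages. Over all merged regions the shares were 73.4%, 55.1% and 73.1%. That set also holds regions not called in every library of a group, so it is not matched to the group-only regions. Of the regions called in blood only, 24.7% ± 6.74 (n = 2) had a peak at 48 h, 10.3% ± 0.96 (n = 2) in Kupffer cells and 51.2% ± 8.93 (n = 2) in cultured macrophages. Lowered shared regions had a peak in Kupffer cells in 67.3% ± 1.40 (n = 2) and raised ones in 94.9% ± 0.76 (n = 2), against 81.9% ± 2.03 (n = 2) of all shared regions. The median signal was 58.7 in lowered, 83.0 in raised and 46.7 in all shared regions, and its part in these shares was not tested. The 2 libraries of each kind lay on the same side of the value for all regions, except in cultured macrophages for regions at 24 h only, where 73.6% and 66.5% bracket 73.1%. Individual loci followed separate courses. Spic and Itga9 regions called at 24 h only were far stronger in liver than in culture: at Spic the signal was 179.5 and 205.4 at 48 h and 8.60 and 7.88 in cultured macrophages, and at Itga9 it was 250.1 and 225.9 at 48 h, 161.1 and 168.7 in Kupffer cells and 21.5 and 17.5 in cultured macrophages. At Ripk2 it was 187.4 and 153.3 at 48 h and 189.8 and 160.3 in culture.

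**Figure D4:**
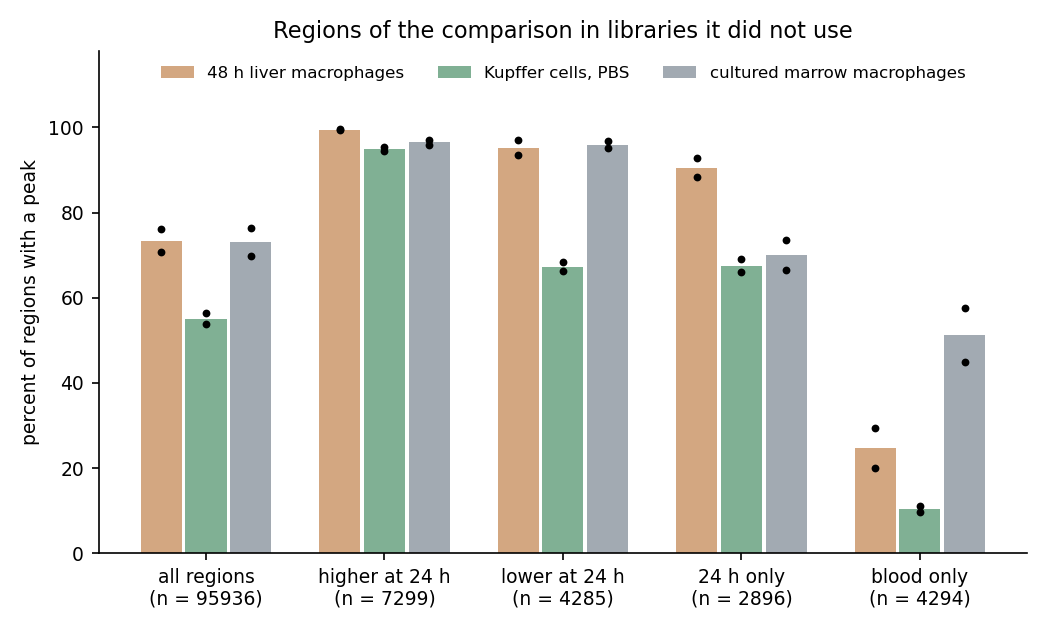
Bars give the mean percent of regions of each class with a peak in 48 h liver macrophages, Kupffer cells of PBS mice and cultured marrow macrophages, and dots the 2 libraries of each. Regions called in blood only had the lowest shares, 24.7%, 10.3% and 51.2%.

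Raised regions lay at starts of transcription more often than lowered ones. A listed start within 500 bp was found for 35.7% of raised, 16.0% of lowered and 22.9% of all shared regions, and for 8.21% of regions at 24 h only and 4.68% in blood only. Of the 10073 shared regions at a start 25.0% rose and 6.62% fell, against 13.4% and 10.4% of the 33840 away from starts. With quantile normalisation it was 15.1% and 10.9% at starts, against 10.8% and 11.5%, and without centring 3.55% rose at starts and 4.79% away from them, so that the excess of rises at starts turned round. Regions with more signal rose more often, 29.5% in the strongest 11309 shared regions and 7.93% in the weakest 11313, or 17.9% and 4.99% with quantile normalisation. Since starts hold strong regions, position and signal move together here.

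**Figure D5:**
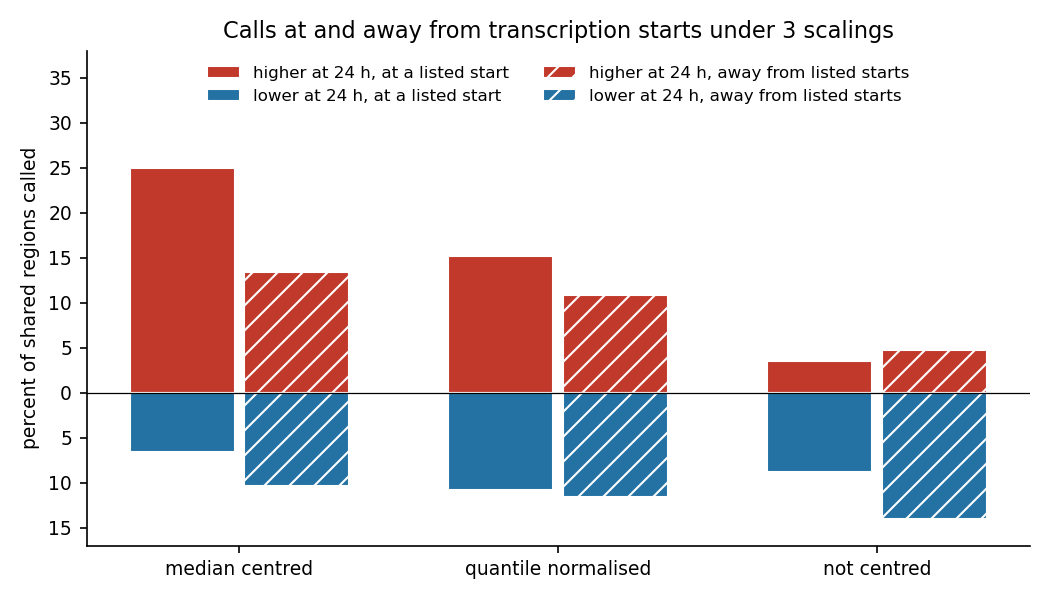
Percent of shared regions that rose (red, up) or fell (blue, down), at listed starts (plain) and away from them (hatched), under 3 scalings of the signal. Rises at starts were 25.0% with median centring, 15.1% with quantile normalisation and 3.55% without centring.

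The letters of the promoters on which these regions lay, from 250 bases before to 50 after each start, were compared between raised and lowered ones. The E-box of the MiT/TFE factors (TCACGTGA) was present in 70 of 2524 promoters with a raised region (2.77%), in 2 of 628 with a lowered one (0.318%), in 2.09% of those with a region that did not pass and in 1.24% of all 21045 listed promoters. The NF-kB letters were in 1.78%, 0.637%, 0.959% and 1.07%. The RUNX letters were in 2.77% of raised, 5.25% of lowered, 3.41% of others and 4.74% of all. The AP-1 letters were in 3.96%, 4.94%, 4.25% and 7.04%, and the GC box in 22.8%, 26.1%, 25.7% and 15.5%. The median GC content was 62.0%, 63.7% and 62.0%, and 56.7% over all promoters. These shares are descriptions, since several genes have more than 1 listed start, and sequences away from starts were not analysed here.

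Among the 100 strongest shared regions, those that changed least lay at the starts of Alcam, an adhesion molecule gene, Cbfa2t2, a corepressor gene, and Eif3j1, a translation initiation factor gene. At Alcam the signal was 786.3 and 896.5 in blood and 733.9, 712.8 and 662.9 at 24 h, with a log2 difference after centring of 0.00 (SE 0.08). With quantile normalisation all 3 were called lower, by -0.39 at Alcam (adjusted p = 0.00052), -0.39 at Cbfa2t2 (adjusted p = 0.00057) and -0.36 at Eif3j1 (adjusted p = 0.0019), and with the findPeaks score Eif3j1 was called higher (0.20, adjusted p = 0.035).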

How the data were processed

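ATAC-seq peak tables of 5 libraries were used, 3 of 24 h repopulating liver macrophages and 2 of blood monocytes, grouped by their titles. The members and gene lists were chosen with earlier results of these data known. Per the submitters' processing notes, the authors used Bowtie2, HOMER and the build mm10; no versions are given in the sources used here. Per the file headers, the deposited signal is the tag count of a peak normalised by findPeaks to 10000000 tags in each library separately, where peaks were 200 bp wide, reached an FDR of 0.001 and stood at least 4-fold over the local 10 kb, with no more than 1 tag counted per base. The deposited findPeaks score of each peak, per the file headers, served only as an alternative value. Libraries held 10544024 to 14188417 tags, and 1 tag was worth 0.705 to 0.948, which limits the precision of weak regions.

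Of 339177 peaks, 267 outside the 19 autosomes and X were left out. Peaks overlapping by 1 bp or more were merged, the strongest peak of a library gave its value, and each region took the closest gene body of a protein-coding gene up to 50 kb away. Shared regions were tested with limma 3.58.1 (R 4.3.3; eBayes with an intensity trend, two-sided tests, p-values adjusted by Benjamini-Hochberg across 45234 regions) on log2(normalised tag count + 1), centred on the library median, so that fold changes of weak regions are understated. Whether groups overlap was judged on the centred values. The fit was tested on simulated data. Single library values used an exact permutation test. Regions with peaks in 1 group have no deposited value in the other and got no test. Starts and promoter sequences came from RefSeq (GRCm38.p6) and covered 17274 of 21631 protein-coding genes, none on chromosome 18. Of 670 entries of 28 gene lists 669 were found.

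The rule for named regions took the 12 largest rises and falls, the 10 genes with most regions in 1 group and the 10 strongest such regions, the 10 genes with most changed regions in 1 direction, in each list the 3 genes with the smallest adjusted p in each direction and those with 3 or more regions in 1 group, the 3 strong regions that changed least, and 15 fixed genes. Other list genes named by their counts, 1 region each of Hpgds, Cd36 and Plin2, and the strongest regions with no peak of the opposite group within 1 kb were chosen after their values were seen. Alternatives covered the pseudocount, scaling, trend, a signal filter, merging, the libraries in the fit and each library left out. Some genes of the lists are not reported here.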

Additional observations from a re-analysis of the deposited data

How the results depend on the processing

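No paired analysis was possible because the groups share no mouse number. The number of raised regions, 7299, went to 2056 without centring and 4087 without the mean-variance trend, and to 3631 to 8552 when 1 library was left out. The number of lowered regions, 4285, went to 2746 without the trend and to 1415 to 5746 when 1 library was left out. Regions called at 24 h only, 2896, numbered 1899 with peaks of at least 20 and 3746 to 5726 when 1 library was left out. Regions called in blood only, 4294, numbered 5649 to 9481 when 1 library was left out. With 1 blood library left, that library is assumed to vary like the others. Of 248 named shared regions, 35 lost their call without centring, 46 without blood mouse8, 44 without mouse3, 29 without the trend and 16 with the findPeaks score, an alternative chosen after seeing the data. The calls lost without the trend included those at Atf3, Ly6c2, Hey2, Rbpj, Smad4 and Mitf. Both pseudocounts, 0.1 and 5, changed no call among them. The change at the start of Eif3j1, near 0, was -0.36 with quantile normalisation and was then called; the cause was not tested. Depth limits weak regions, where 1 tag is worth nearly 1 unit of signal.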
